A study of Mus musculus with 15 samples.

Results

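Nuclear-encoded oxidative phosphorylation subunits were examined in mouse liver. They are the proteins, made from chromosomal genes, that build the respiratory chain and the ATP synthase of the mitochondrial inner membrane. Members were taken by symbol from the protein-coding genes: Ndufa, Ndufb, Ndufc, Ndufs and Ndufv with a number, Sdha to Sdhd, Cyc1, symbols that start with Uqcr, with Cox4i, Cox5, Cox6, Cox7 or Cox8, and with Atp5. The Ndufaf assembly factors were not taken. The rule found 84 genes among 35548 in the table, and 78 of them had a mean count of at least 10 over the libraries. These were 35 genes of complex I, 4 of complex II, 9 of complex III, 13 of the 19 of complex IV and 17 of complex V. Ndufa4, which carries a complex I name, was placed with complex IV, where its protein is now known to sit.

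The samples were 15 bulk RNA libraries of liver from mice fed a high-fat diet for 8 weeks, in 3 groups of 5. WT was wild type, C247S_KI carried the C247S change of TXNIP as a knock-in, and KO was a Txnip knockout. TXNIP binds thioredoxin, and the title poses the question of whether their covalent bond is required when the diet makes liver insulin resistant. All groups shared the diet, and the labels give no strain, sex, age, or cell type in which the gene was removed. Nor do they state 1 animal per library, so the spread behind the p-values may be partly technical. The sample titles also carry numbers, and those of KO lie apart from those of WT and C247S_KI. What the numbers stand for is not stated, and whatever they reflect cannot be told apart from the KO genotype.

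Oxidative phosphorylation passes electrons from NADH through complex I, and from succinate through complex II, to ubiquinone, then through complex III and cytochrome c to complex IV, which reduces oxygen. Complexes I, III and IV pump protons, and complex V, the ATP synthase, lets them return and makes ATP. Every complex except complex II also holds subunits encoded by the mitochondrial genome, so that 2 genomes supply its parts. In liver this chain meets the energy demand of gluconeogenesis, urea synthesis and the oxidation of fat. The nuclear genes are known targets of NRF1, of GABP (an ETS factor, formerly NRF2), of YY1 and of the oestrogen-related receptors with their coactivator PGC-1alpha, encoded by Ppargc1a.

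Because the members moved together across libraries as described later, promoter windows were searched for these factors' short motifs on both strands. RefSeq windows of GRCm38.p6, from 250 bases before to 50 bases after a gene's RefSeq start, were matched by symbol for 63 of the 78 members. This start can differ from that in the GENCODE annotation used for the counts. The NRF1 core GCGCATGC was held by 10 of 63 windows (15.9%), beside 5.1% of the 10559 windows of tested genes and 2.8% of all 27025. The YY1 motif AAGATGGC was held by 8 (12.7%, beside 4.5% and 2.9%), and 7 of these 8 were complex I genes. Complex I supplied 31 of the 63 windows. The ETS motif CCGGAAG was held by 15 (23.8%, beside 17.3% and 9.1%). At least 1 of these 3 was in 28 windows (44.4%, beside 24.6% of tested genes). The SP1 motif GGGCGG was held by 24 windows (38.1%), beside 61.6% of tested genes, the CRE motif TGACGTCA by 4 (6.3%, beside 3.0%) and the ERR motif TNAAGGTCA by 3 (4.8%, beside 0.8%). A match is a description of letters and shows no binding.

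The windows of 5 members are printed, 1 per complex, chosen among the members described here because they hold 1 or more of the NRF1, ETS and YY1 motifs. All are written 5′ to 3′ on the gene's strand, and capitals mark the matches to these 3 motifs; overlapping NRF1 matches on opposite strands were counted separately. The Ndufs7 window (chr10:80249199-80249498, plus strand) holds a YY1 match, and the Sdhb window (chr4:140961021-140961320, plus strand) an NRF1 and an ETS match. By its GENCODE coordinates, Ndufs7 starts at 80249121, so its printed window lies inside the gene and not before it. The Uqcrc1 window (chr9:108936398-108936697, plus strand) holds NRF1 matches only. The Cox6a1 window (chr5:115348909-115349208, minus strand) and the Atp5k window (chr5:108434350-108434649, minus strand) hold NRF1 and ETS matches.
Ndufs7: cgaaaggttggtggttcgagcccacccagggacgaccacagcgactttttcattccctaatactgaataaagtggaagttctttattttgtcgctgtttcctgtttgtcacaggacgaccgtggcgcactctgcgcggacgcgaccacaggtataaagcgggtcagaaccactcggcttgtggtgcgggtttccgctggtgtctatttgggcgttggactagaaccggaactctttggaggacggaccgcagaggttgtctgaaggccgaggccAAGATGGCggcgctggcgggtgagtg
Sdhb: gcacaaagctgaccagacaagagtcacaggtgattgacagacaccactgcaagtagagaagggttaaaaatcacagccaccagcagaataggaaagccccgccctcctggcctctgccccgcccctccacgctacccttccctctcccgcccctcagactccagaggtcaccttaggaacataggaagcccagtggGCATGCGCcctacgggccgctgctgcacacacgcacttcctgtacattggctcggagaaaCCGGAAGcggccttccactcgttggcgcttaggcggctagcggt
Uqcrc1: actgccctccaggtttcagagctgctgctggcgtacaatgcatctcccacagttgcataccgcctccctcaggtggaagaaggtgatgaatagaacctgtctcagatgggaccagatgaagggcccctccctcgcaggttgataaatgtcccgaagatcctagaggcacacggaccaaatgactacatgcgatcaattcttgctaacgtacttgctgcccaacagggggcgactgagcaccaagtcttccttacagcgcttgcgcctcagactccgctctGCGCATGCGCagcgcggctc
Cox6a1: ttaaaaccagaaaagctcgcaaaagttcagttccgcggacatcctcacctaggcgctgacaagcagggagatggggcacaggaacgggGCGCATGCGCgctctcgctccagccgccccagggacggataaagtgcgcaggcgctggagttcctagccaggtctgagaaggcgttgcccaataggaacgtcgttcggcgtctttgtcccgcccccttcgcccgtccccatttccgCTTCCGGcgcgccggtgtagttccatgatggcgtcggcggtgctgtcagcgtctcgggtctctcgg
Atp5k: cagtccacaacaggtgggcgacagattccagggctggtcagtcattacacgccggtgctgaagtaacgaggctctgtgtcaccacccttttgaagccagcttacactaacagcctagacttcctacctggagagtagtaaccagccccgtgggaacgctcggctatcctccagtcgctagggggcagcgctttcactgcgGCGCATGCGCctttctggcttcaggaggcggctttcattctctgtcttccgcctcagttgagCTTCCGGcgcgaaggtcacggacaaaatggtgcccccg

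The libraries held 18047577 to 23379940 estimated counts, and counting error mattered for the members with few counts, such as Cox7a1 and Atp5s. Txnip, the targeted gene, was measured in CPM (counts per 1000000, with TMM-scaled library sizes) at 180 to 320 in WT, 99.9 to 280 in C247S_KI and 70.9 to 124 in KO. It was lower in KO than in WT (log2 difference -1.17 ± 0.24 SE, adjusted p = 0.00886, edgeR quasi-likelihood test with Benjamini-Hochberg adjustment) and lower than in C247S_KI (-0.96 ± 0.24, adjusted p = 0.0182, or 0.0576 without KO 4). Transcripts of the gene were thus still counted in the KO libraries. The 8 hepatocyte markers summed to 93580 to 115100 CPM in WT, 77230 to 129200 in C247S_KI and 66020 to 90490 in KO, so every KO library lay below every WT library. Albumin transcripts weigh heavily in this sum. They held 5.85% to 7.22% of a library's counts in WT, 4.17% to 8.59% in C247S_KI and 2.88% to 4.29% in KO. By gene, 4 of the 8 markers were above 0 and 4 below in KO against WT, with a median log2 difference of -0.02. Alb, the albumin gene, fell in KO against WT (-0.80, adjusted p = 0.0294) and against C247S_KI (-0.80, adjusted p = 0.0219), and Cyp2e1 rose against C247S_KI (0.77, adjusted p = 0.0141); the part of this shift in the members' levels was not tested. WT 1, C247S_KI 3 and C247S_KI 5 were named from earlier results as libraries that stand apart, and results that turn on them are given with and without them.

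Transcript levels differed between the subunit genes of a complex. Levels per length were counts per kilobase of transcript, rescaled to sum to 1000000 in each library, without TMM factors. Averaged over the 15 libraries, complex I members ran on this scale from 36.0 for Ndufb4 to 348 for Ndufb9, with a median of 145. Both are accessory subunits of the membrane arm. Complex II was the most even, from 175 for Sdhc to 284 for Sdha, which encode a membrane anchor and the flavoprotein that oxidizes succinate. Complex III ran from 161 for the core protein gene Uqcrc2 to 554 for the small subunit gene Uqcrq.

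Complex V ranged from 5.17 for Atp5s to 1084 for Atp5b, the catalytic beta subunit. Atp5s encodes coupling factor B, which is not counted among the stable subunits of the enzyme. Alpha and beta stand in equal number in the catalytic core, and the alpha gene Atp5a1 was at 609 on this scale. The 3 genes Atp5g1, Atp5g2 and Atp5g3 encode the same mature c-ring protein, and their levels were 374, 213 and 756, so Atp5g3 was the largest source of this transcript in liver.

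Complex IV showed the split between liver and muscle isoforms. Cox6a1, the liver-type isoform, stood at 894 and Cox4i1 at 808 on the same scale per length, the highest of the complex. Cox7a1, the heart and muscle isoform, was at 4.70, whereas Cox7a2, its liver counterpart, was at 209. The 6 members below a mean count of 10 were all alternative isoforms of this complex: Cox4i2, known from lung, had 7.67 counts per library, the muscle isoform Cox6a2 4.13, the testis isoform Cox6b2 9.53, Cox8b 1.27, Cox7b2 0.27 and Cox8c 0.13. The highest single library among them held 15 counts. Cox6b2 alone of these 6 entered the fit and was not called (adjusted p = 0.741 to 0.977, edgeR). The plot of levels per length shows this spread within each complex.

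**Figure D1:**
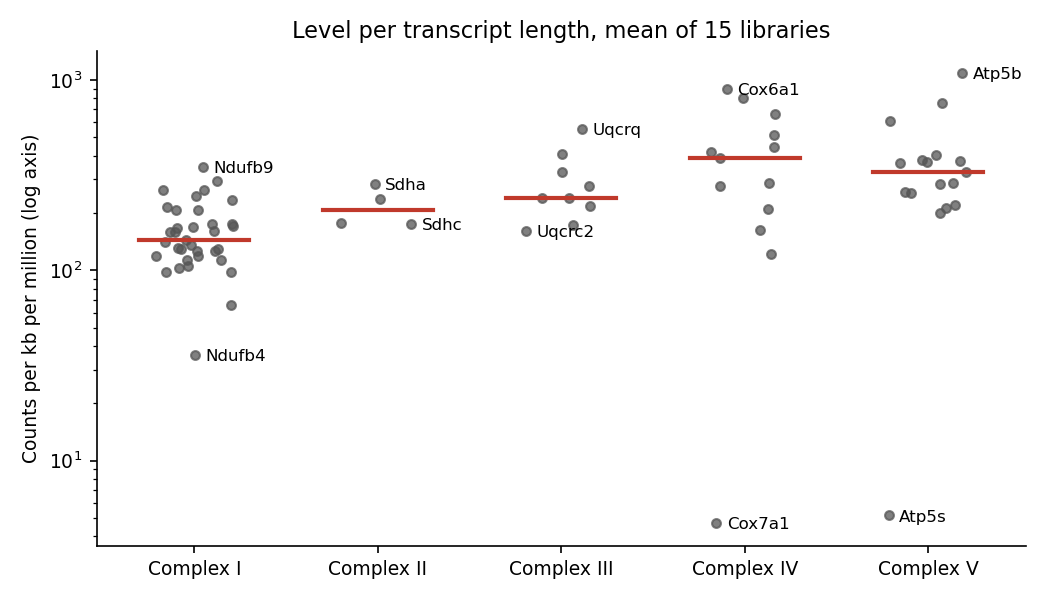
Level of each of the 78 members, in CPM per kilobase of transcript on a log axis, as the mean of 15 libraries, by complex. Points are genes, red bars are medians, and the highest and lowest gene of each complex are named; Cox7a1 (4.70) and Atp5s (5.17) lie far below the rest of complexes IV and V.

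The members followed 1 pattern over the libraries, and it was shared by all 5 complexes. For each library the median over the 78 members was taken of the log2 CPM less that gene's mean over the 15 libraries. In WT this was 0.32, -0.11, 0.28, 0.19 and -0.37 for replicates 1 to 5. In C247S_KI it was -0.14, -0.13, -0.09, 0.05 and -0.50, and in KO -0.05, 0.30, -0.02, 0.33 and 0.01. The groups overlapped: 2 WT libraries lay among or below the C247S_KI libraries, and 3 WT libraries lay as high as most KO libraries.

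KO 4 was above the gene's own mean for 78 of 78 members, WT 3 and WT 4 for 76 each and KO 2 for 75. C247S_KI 5 was above it for 1 member and WT 5 for 3. C247S_KI 5 was the lowest of the 15 libraries for 50 members and WT 5 for 21, while WT 1 was the highest for 25, KO 2 for 19, KO 4 for 18 and WT 3 for 11. The first principal component of the members held 76.9% of their variance, and 76.8% after removal of the genotype means, beside 23.6% for all 13916 genes tested. The median Pearson r over pairs of members was 0.83 over the 15 libraries and 0.82 within genotypes, given as a description of genes that share libraries. The shared movement was thus about as strong among libraries of the same genotype as over all of them. All genes tested are not matched to the members in level (median 11.8 CPM, beside 109.7). Movement of this size was not particular to the members. Their median deviation spanned 0.83 over the 15 libraries, that of 78 mitochondrial ribosome genes 0.84 and that of 78 cytosolic ribosome genes 1.095.

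**Figure D2:**
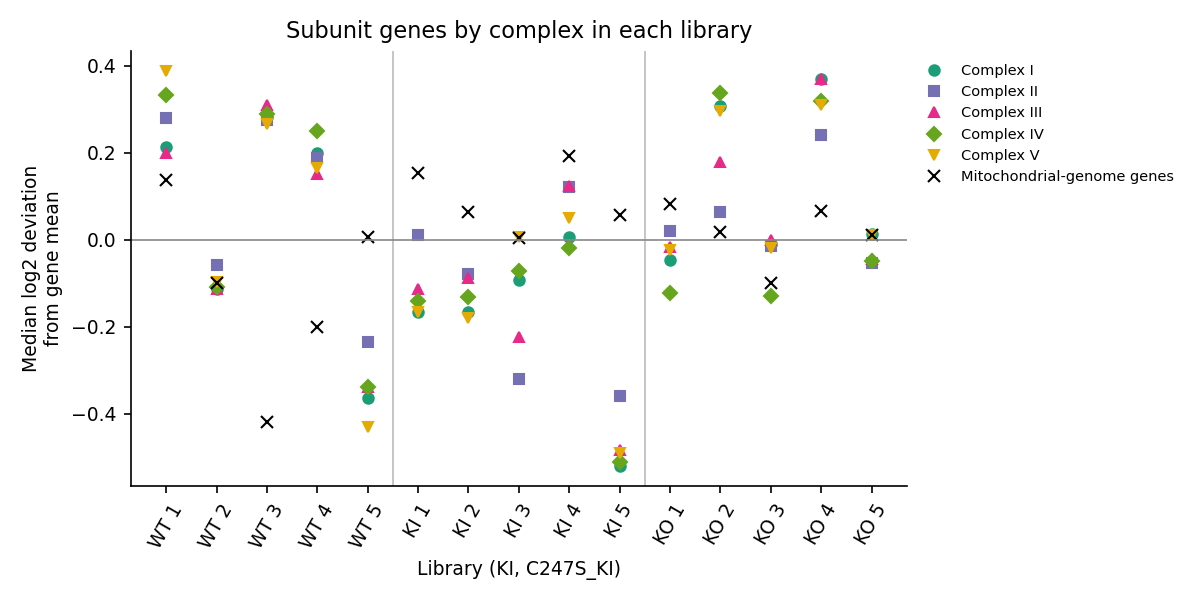
Median log2 deviation of the members of each complex from each gene's own mean, for the 15 libraries by genotype, with the 13 mitochondrial-genome genes as crosses. The 5 complexes lie close together in most libraries and reach their lowest values in C247S_KI 5 (-0.36 to -0.52).

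A few members followed the pattern less closely or not at all. The median r with the other members was -0.17 for Sdha, 0.02 for Ndufs1, which encodes the largest iron-sulphur subunit of complex I, 0.12 for Cox7a1, 0.46 for Atp5s, 0.51 for Atp5a1 and 0.53 for Ndufa10. Sdha was measured at 401, 595, 554, 565 and 591 CPM in WT, at 565, 525, 337, 596 and 478 in C247S_KI and at 549, 457, 530, 533 and 531 in KO. Its lowest values were in C247S_KI 3 and WT 1, whereas WT 1 was among the highest libraries for Sdhb, its partner in complex II. Its groups overlapped.

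Transcript length moved with this pattern in most libraries, but not in all. The members' transcripts are short: 8 of 78 averaged at most 500 bases, 48 lay between 500 and 1000, 18 between 1000 and 2000, and 4 were longer (Sdhc, Atp5a1, Ndufs1 and Sdha). Among the 932 other tested genes with transcripts of 500 to 1000 bases, the same median deviation was -0.24 in WT 5, -0.37 in C247S_KI 5 and 0.33 in KO 2. Among the 3764 other genes over 4000 bases it was 0.12, 0.25 and -0.16 in those libraries. In C247S_KI 3 the members were at -0.09, whereas other genes of 500 to 1000 bases were at 0.22 and the 208 of up to 500 bases at 0.38. This shortest class also departed in WT 5 (0.04, beside -0.37 for the members) and in KO 5 (-0.29, beside 0.01). The part of length, and of whatever set it in these libraries, in the members' movement was not tested; a fit with each library's trend on transcript length taken out, chosen after seeing the data, is given beside the results.

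In C247S_KI against WT no member passed the test, and every member had a lower fitted level in C247S_KI. The 78 log2 differences ran from -0.38 (Atp5k) to -0.09 (Ndufs1), with a median of -0.23 beside 0.00 for all genes tested and a median SE of 0.15. Below 0 were 78 of 78 members, beside 49.6% of all genes tested. Of the 932 other tested genes with transcripts of 500 to 1000 bases, 690 were below 0. Called at adjusted p below 0.05 were 0 of 78, beside 0.0862% of genes (12 of 13916), and the lowest adjusted p among members was 0.504. DESeq2 and limma-voom called 0 as well.

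At unadjusted p under 0.05 and lower in C247S_KI were 3 members, beside 4.2% of genes. No member had groups that did not overlap, beside 0.589% of genes lower without overlap. Because the members moved together, their shared sign is close to 1 observation and not 78. The count of 3 became 42 without WT 5 (lowest adjusted p 0.187), 10 without C247S_KI 4, 6 without C247S_KI 3, 5 without WT 2, 2 without WT 1 and 1 without WT 3. It was 0 without C247S_KI 1, C247S_KI 2, C247S_KI 5 or WT 4.

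Complex by complex, the median log2 difference between C247S_KI and WT was -0.23 for complex I, -0.21 for complex II, -0.21 for complex III, -0.27 for complex IV and -0.22 for complex V. No complex stood apart from the others in size or direction. Without WT 1, C247S_KI 3 and C247S_KI 5, the median over the members was -0.10 and 63 of 78 were below 0. With the length trend taken out it was -0.09 and 70 of 78 were below 0. In a tissue sample, fewer cells of a type and less RNA per cell cannot be told apart.

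The complex I genes with the lowest p in this comparison were Ndufb3 and Ndufa2, accessory subunits of the membrane arm and of the peripheral arm. Ndufb3 was at 63.4, 42.1, 63.1, 54.3 and 36.6 CPM in WT and at 40.4, 37.2, 46.0, 45.3 and 36.9 in C247S_KI (-0.33 ± 0.16 SE, adjusted p = 0.504, edgeR). WT spanned the whole C247S_KI range, with WT 1 and WT 3 high and WT 5 low. Ndufa2 averaged 62.8 ± 12.6 CPM (SD, n = 5) in WT and 51.3 ± 6.20 in C247S_KI (-0.29, adjusted p = 0.506, edgeR).

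In complex II, Sdhc was at 182, 164, 204, 191 and 146 CPM in WT and 161, 153, 130, 172 and 124 in C247S_KI (-0.26 ± 0.12, adjusted p = 0.506, edgeR). Sdhb, the iron-sulphur subunit whose promoter is printed above, was at 227, 149, 213, 210 and 139 CPM in WT and 149, 161, 138, 190 and 112 in C247S_KI (-0.32 ± 0.16, adjusted p = 0.534, edgeR). In both genes 3 WT libraries stood high and 2 lay within the C247S_KI range.

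In complex III the lowest p values belonged to Uqcrc2 (-0.23, adjusted p = 0.633, edgeR) and the Rieske iron-sulphur protein gene Uqcrfs1 (-0.21, adjusted p = 0.639). In complex IV they belonged to Cox5a (129 ± 24.8 CPM in WT, 105 ± 13.8 in C247S_KI, -0.30, adjusted p = 0.516) and Cox7c (151 ± 35.4 and 122 ± 12.8, -0.31, adjusted p = 0.533). In complex V, Atp5k, the small membrane subunit e, was at 117, 84.6, 121, 109 and 62.7 CPM in WT and at 74.7, 75.3, 91.8, 85.6 and 53.2 in C247S_KI (-0.38 ± 0.19, adjusted p = 0.530). The next was Atp5s (-0.31, adjusted p = 0.533). None of these differences was called after adjustment over all genes tested.

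In KO against WT the members did not move 1 way. No member was called, beside 6.75% of genes (939 of 13916), and the lowest adjusted p was 0.180. Above 0 were 51 of 78 members (25 without WT 5), beside 48.7% of genes, and the median log2 difference was 0.04, beside -0.01 for all genes. At unadjusted p under 0.05 were 2 members, Ndufs7 and Cox7a1, beside 23.3% of genes. DESeq2 and limma-voom called 0 members. The complex medians were 0.05, -0.07, 0.07, -0.01 and 0.04 for complexes I to V.

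Ndufs7 had the highest difference of this comparison (0.33 ± 0.15 SE, adjusted p = 0.191, edgeR) and Cox7a1 the lowest (-0.81 ± 0.36, adjusted p = 0.180). Cox7a1 was at 1.55, 1.28, 1.69, 2.02 and 1.07 CPM in WT, 1.87, 1.20, 0.228, 1.35 and 1.21 in C247S_KI and 0.806, 0.740, 0.826, 1.19 and 0.762 in KO. KO 4 lay within the WT range and the other KO libraries below it. These are low counts, with a mean of 24.4 per library. The muscle marker list, whose tissue expresses this isoform, summed to 7.62 to 15.6 CPM in WT, 6.55 to 10.3 in C247S_KI and 2.19 to 11.5 in KO, with no marker at 0 in all libraries; its part in the Cox7a1 values was not tested.

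The other members with the lowest p in KO against WT were, by complex, Ndufa5 (0.21), Sdhc (-0.12), Sdhd (-0.08, or 0.06 without WT 1), Uqcrc1 (0.24), Cyc1 (0.19), Cox7c (-0.19), Atp5d (0.13) and Atp5s (0.12). Their adjusted p values ran from 0.299 for Uqcrc1 to 0.805 for Sdhd (edgeR). Ndufa5 belongs to the peripheral arm of complex I, Cyc1 is cytochrome c1, Sdhd a membrane anchor of complex II, and Atp5d the delta subunit of the ATP synthase stalk.

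In KO against C247S_KI 1 member was called. Ndufs7 rose in KO, and 76 of 78 members had a log2 difference above 0, beside 46.8% of all genes. Of the 932 other tested genes with transcripts of 500 to 1000 bases, 645 were above 0. Called in either direction were 10.3% of genes (1427 of 13916), so 1 of 78 members is a smaller share than the background. The members ran from -0.45 (Cox7a1) to 0.55 (Ndufs7), with a median of 0.28 beside -0.03 for all genes. The medians by complex were 0.30, 0.12, 0.25, 0.24 and 0.25 for complexes I to V. Ndufs1 (-0.07) and Cox7a1 were the members below 0. This comparison shares its C247S_KI libraries with C247S_KI against WT, so the sign of the members in one is not independent of that in the other.

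At unadjusted p under 0.05 and higher in KO were 21 members, 14 of them in complex I, beside 12.4% of genes. Among the 932 other tested genes of 500 to 1000 bases, 204 were. The count of 21 members was 8 without C247S_KI 5, 8 without KO 2, 9 without KO 4, 12 without C247S_KI 1 and 10 without WT 1, C247S_KI 3 and C247S_KI 5 together. With the length trend taken out, 65 of 78 members were above 0, the median was 0.08, and 8 members were at unadjusted p under 0.05. Without WT 1, C247S_KI 3 and C247S_KI 5 the median was 0.21, with 68 of 78 above 0. For 50 members the group means ran from C247S_KI through WT to KO, and for 26 C247S_KI was lowest and WT highest.

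**Figure D3:**
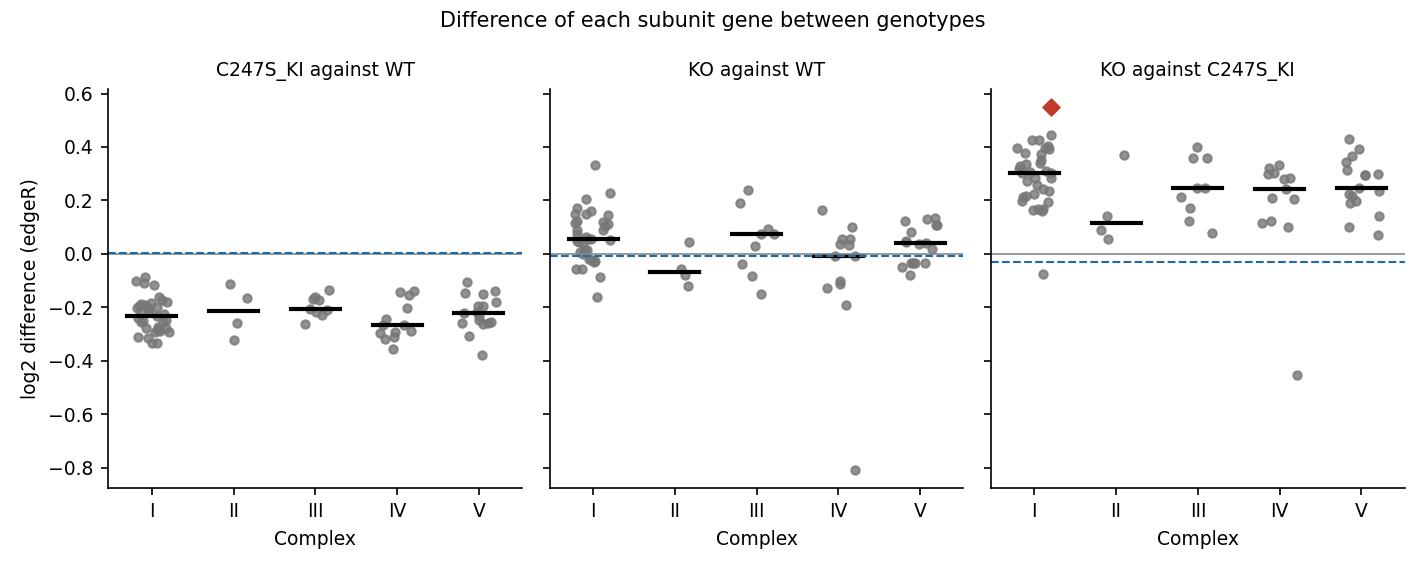
The log2 difference of each of the 78 members from the edgeR fit, by complex, for the 3 comparisons. Points are genes, the red diamond is the called gene Ndufs7, black bars are complex medians and the dashed line is the median of all 13916 genes; all members lie below 0 in C247S_KI against WT, and 76 above it in KO against C247S_KI.

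Ndufs7 (ENSMUSG00000020153, GRCm38 chromosome 10, 80249121 to 80256794, plus strand) encodes a core subunit of complex I. It holds the last iron-sulphur cluster before ubiquinone. It was at 82.7, 69.6, 92.2, 93.9 and 68.5 CPM in WT, at 65.3, 68.5, 81.5, 84.6 and 50.2 in C247S_KI and at 90.1, 126, 96.1, 113 and 87.0 in KO. Every KO library lay above every C247S_KI library, with 87.0 as the lowest KO and 84.6 as the highest C247S_KI value. WT overlapped with both groups. The difference between KO and C247S_KI was 0.55 ± 0.15 (SE) on the log2 scale (adjusted p = 0.0281, edgeR quasi-likelihood test with Benjamini-Hochberg adjustment over all genes).

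With the length trend taken out the difference of Ndufs7 was 0.36 (adjusted p = 0.0286). The call ended without C247S_KI 1 (adjusted p = 0.0745), C247S_KI 2 (0.0530), C247S_KI 5 (0.0637), KO 2 (0.0884) or KO 4 (0.0731), and without WT 1, C247S_KI 3 and C247S_KI 5 together (0.0513). The log2 difference stayed between 0.45 and 0.63 when single libraries were left out. The transcript Ndufs7-201 made up 94.3% to 94.5% of the gene's counts in the group means.

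The other core subunits of complex I did not all follow it. Ndufv1, which binds the flavin that accepts electrons from NADH, was at 183, 193, 183, 213 and 145 CPM in C247S_KI and 230, 235, 223, 281 and 238 in KO (0.40 ± 0.13, adjusted p = 0.0640, edgeR). These groups did not overlap either. Further core subunits had differences of 0.40 (Ndufs8), 0.33 (Ndufs3), 0.17 (Ndufv2) and -0.07 (Ndufs1), with adjusted p from 0.132 to 0.736. The 28 accessory subunits had a median of 0.30, and all were above 0. Without overlap and higher in KO were 3 members in all, Ndufs7, Ndufv1 and Atp5s, beside 4.73% of genes.

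**Figure D4:**
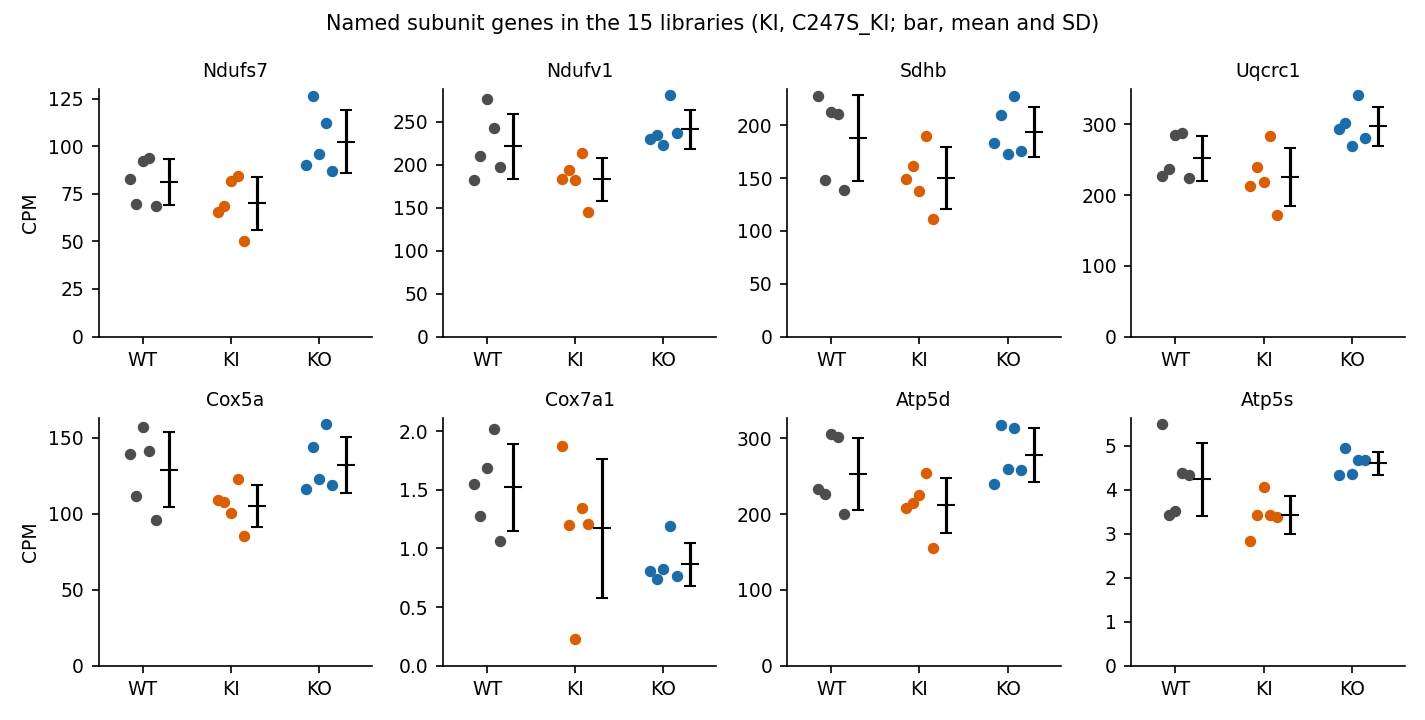
CPM of 8 members in each of the 15 libraries by genotype, with the mean and SD of each group as a bar beside the points, each panel from 0. The KO and C247S_KI points do not overlap for Ndufs7, Ndufv1 and Atp5s, while WT overlaps both groups in these panels.

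In complex III, Uqcrc1, a core protein, was at 213, 240, 218, 284 and 172 CPM in C247S_KI and 293, 301, 270, 341 and 280 in KO (0.40 ± 0.13, adjusted p = 0.0640, edgeR). C247S_KI 4 lay within the KO range and the other C247S_KI libraries below it. Cyc1 was at 158, 160, 151, 192 and 124 CPM in C247S_KI and 193, 199, 189, 239 and 186 in KO (0.36 ± 0.13, adjusted p = 0.0783). Ndufv1, Uqcrc1 and Cyc1 were called by DESeq2 (adjusted p = 0.0315, 0.0310 and 0.0452). With the length trend taken out their differences were 0.285, 0.293 and 0.217 (adjusted p = 0.1405, 0.138 and 0.2247, edgeR). Without WT 1, C247S_KI 3 and C247S_KI 5 they were 0.289, 0.269 and 0.239 (adjusted p = 0.1308, 0.1725 and 0.206, edgeR).

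In complex II the lowest p values were those of Sdhb (150 ± 28.9 CPM in C247S_KI, 194 ± 23.7 in KO, 0.37, adjusted p = 0.151, edgeR) and Sdhc (0.14, adjusted p = 0.488). In complex IV they were those of Cox5a (0.33, adjusted p = 0.143) and Cox4i1 (344 ± 63.3 and 430 ± 69.9 CPM, 0.32, adjusted p = 0.225). In complex V, Atp5s was at 2.83, 3.42, 4.05, 3.43 and 3.38 CPM in C247S_KI and 4.34, 4.95, 4.36, 4.66 and 4.68 in KO (0.43 ± 0.15, adjusted p = 0.0828, or 0.0476 without C247S_KI 3 and 0.0463 without WT 1, C247S_KI 3 and C247S_KI 5). Atp5d followed (212 ± 36.5 and 278 ± 35.8 CPM, 0.39, adjusted p = 0.107). With the length trend taken out the difference of Atp5s was 0.291 (adjusted p = 0.2045, edgeR). Without C247S_KI 1 it was 0.374 (adjusted p = 0.1795, edgeR). Atp5d and Ndufs7 lie on the same chromosome with 103.3 kb between them, and Ndufs8 and Ndufv1 are 94.6 kb apart on chromosome 19.

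The members' medians differed between length classes, with no test of the difference, and in KO against C247S_KI without a steady order. The 8 members of at most 500 bases had a median log2 difference of -0.25 in C247S_KI against WT and 0.21 in KO against C247S_KI. The 48 members with mean transcripts of 500 to 1000 bases had a median log2 difference of -0.25 in C247S_KI against WT and 0.30 in KO against C247S_KI. For the 18 between 1000 and 2000 bases these were -0.19 and 0.22, and for the 4 over 2000 bases -0.11 and 0.06. Other genes of at most 500 bases had medians of -0.22 and 0.07, those of 500 to 1000 bases -0.15 and 0.19, and those over 4000 bases 0.10 and -0.17. The members' medians were farther from 0 than those of other genes of like length; this difference has no test here. By promoter motif, also with no test, the 28 with an NRF1, ETS or YY1 match had medians of -0.25 and 0.28, and the other 35 matched members -0.22 and 0.27. In KO against C247S_KI the 4 members with a CRE match had a median of 0.19 and the 3 with an ERR match 0.22, each beside 0.28 for the members without it.

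**Figure D5:**
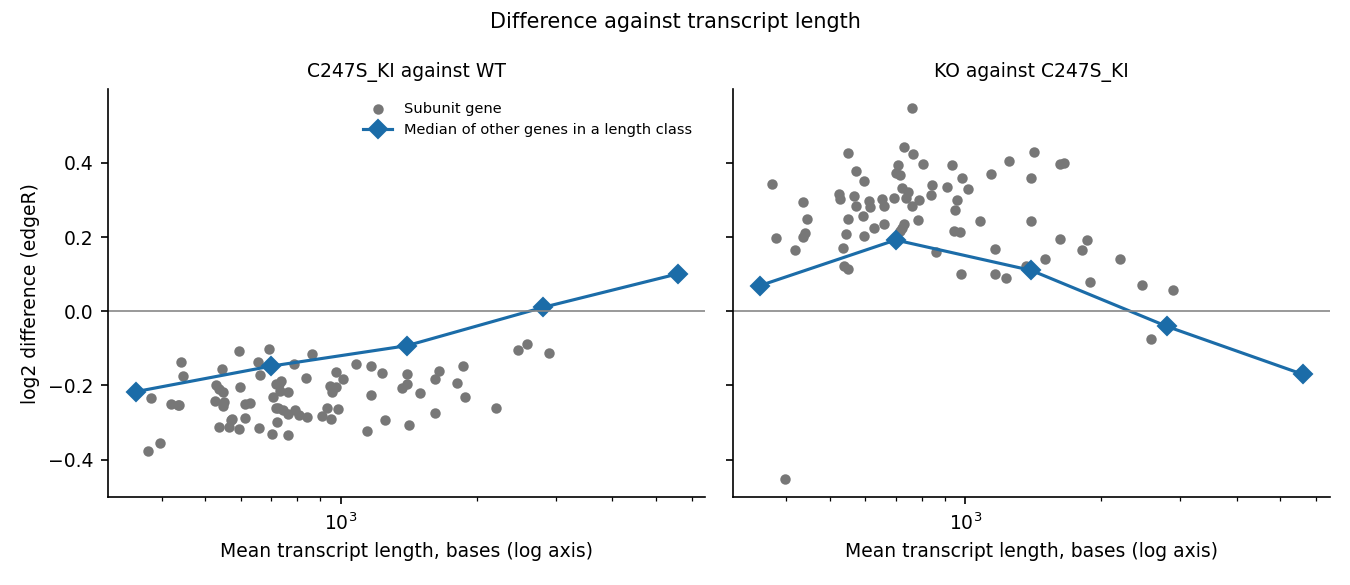
The log2 difference of each member against its count-weighted mean transcript length in bases (log axis), for C247S_KI against WT and KO against C247S_KI. Grey points are the 78 members and blue diamonds the medians of the other tested genes in 5 length classes, which run from -0.22 to 0.10 on the left and between -0.17 and 0.19 on the right.

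The 13 subunit genes of the mitochondrial genome did not follow the nuclear members over the libraries. Their median deviation was -0.42 in WT 3, where the nuclear members were at 0.28, and 0.06 in C247S_KI 5, where the nuclear members were at -0.50. In C247S_KI against WT 12 of 13 were above 0, with a median of 0.13, and mt-Nd3 alone was called (205 ± 30.3 CPM in WT, 607 ± 51.9 in C247S_KI, 243 ± 39.0 in KO, adjusted p = 1.24e-05, edgeR). In KO against C247S_KI mt-Nd3 was again the only one of the 13 called (-1.32, adjusted p = 5.92e-05, edgeR). Reads shared with a near-identical nuclear copy could make the value of mt-Nd3 uncertain, and their part was not tested. Counts of mitochondrial-genome genes were 4.17 ± 0.99 times (SD, n = 5) those of the summed members in WT, 5.18 ± 0.62 times in C247S_KI and 4.31 ± 0.39 times in KO, and these ranges overlapped between groups.

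Assembly factors build the subunits into complexes, and 5 of 50 tested (10%) rose in KO against C247S_KI, beside 4.41% of all genes called higher and 10.3% called in either direction. Of these, 2 were among 15 for complex I, Ecsit (0.53, adjusted p = 0.00937) and Timmdc1 (0.39, adjusted p = 0.0322). Of 21 complex IV factors 3 rose: Sco2, a copper chaperone (29.7 ± 6.50 CPM in C247S_KI, 61.2 ± 10.5 in KO, 1.05, adjusted p = 0.00632), Cox10, which makes haem for this complex (0.60, adjusted p = 0.0243), and Surf1. None of the 10 factors of complexes II and III or the 4 of complex V was called. Cox10 alone of the 50 also rose in KO against WT, beside 2.56% of genes called higher (10.3 ± 1.88 to 15.7 ± 1.33 CPM, 0.61, adjusted p = 0.0290, edgeR). In C247S_KI against WT none of these 50 tested factors was called, and 45 were below 0.

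Among 19 regulators of mitochondrial gene expression, Esrra rose in KO against both other groups. This gene encodes the oestrogen-related receptor alpha and was at 37.3 ± 2.75 CPM in WT, 32.2 ± 3.56 in C247S_KI and 52.6 ± 6.08 in KO. The lowest KO library held 44.5 CPM, the highest WT library 39.4 and the highest C247S_KI library 38.2, so KO did not overlap with the others. Its log2 differences were 0.50 ± 0.10 (adjusted p = 0.00930) and 0.71 ± 0.10 (adjusted p = 0.000541, edgeR). Twnk and Polrmt, the helicase and the RNA polymerase of mitochondrial DNA, rose in KO against WT (0.36 and 0.38, adjusted p = 0.0318 and 0.0418), and Tfb1m in KO against C247S_KI (0.66, adjusted p = 0.0447). Called higher in KO against WT were thus 3 of the 19 (15.8%), beside 2.56% of genes. In KO against C247S_KI they were 2 (10.5%), beside 4.41%. Ppargc1a (adjusted p = 0.372 to 0.938), Nrf1 (0.624 to 0.952), Gabpa (0.727 to 0.992), Yy1 (0.316 to 0.895) and Tfam (0.396 to 0.963) were not called in any comparison.

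Of the 78 mitochondrial ribosome genes tested, 9 (11.5%) rose in KO against C247S_KI (77 above 0, median 0.33), beside the same 4.41% of genes. In KO against WT 1 rose, Mrps5 (1.28%, beside 2.56% of genes), with 67 above 0 and a median of 0.15. The 78 tested cytosolic ribosome genes had 0 called in any comparison and medians of -0.11 in C247S_KI against WT and 0.23 in KO against C247S_KI. Both lists also had their lowest library level in C247S_KI 5 (-0.49 and -0.57). None of 14 genes of the TCA cycle was called, with medians of -0.10 and 0.02, and of 20 import and membrane transport genes Tomm40 and Timm44 rose in KO against both other groups. These are 10% of that list in each comparison, beside 2.56% of genes called higher against WT and 4.41% against C247S_KI.

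Markers of other liver cells also differed. The 13 Kupffer cell and macrophage markers summed to 213 to 513 CPM in WT, 103 to 256 in C247S_KI and 132 to 461 in KO. In C247S_KI against WT 13 of 13 were below 0, with a median of -0.72 and 0 called (8 at unadjusted p under 0.05), and in KO against WT Trem2 and Gpnmb fell. The sinusoidal endothelial list summed to 115 to 274, 130 to 170 and 144 to 236 CPM, the stellate list to 490 to 565, 350 to 545 and 159 to 450, the cholangiocyte list to 35.0 to 53.4, 46.6 to 121 and 25.6 to 38.1, and the red blood cell list to 556 to 1951, 711 to 3267 and 1235 to 3765. The T, NK and B cell list summed to 3.27 to 12.3, 3.40 to 6.26 and 2.03 to 4.73 CPM and the adipocyte list to 3.57 to 25.5, 7.87 to 48.6 and 1.26 to 3.52. No marker of these 9 lists was called in C247S_KI against WT. In KO against C247S_KI, where Ndufs7 was called, Gpnmb (-1.98, adjusted p = 0.0212), the endothelial Lyve1 (-1.47, adjusted p = 0.00165), the cholangiocyte markers Sox9 (-1.05, adjusted p = 0.0122) and Spp1 (-1.48, adjusted p = 0.00304) and the adipocyte marker Cfd (-3.76, adjusted p = 0.000961) fell. In that comparison 11 Kupffer cell and macrophage markers were above 0 and 2 below, with a median of 0.46. Of the endothelial markers 6 were above 0 and 2 below, with a median of 0.42, and all 5 tested cholangiocyte markers were below 0. In KO against WT, Lyve1, Pecam1, Col3a1, Ms4a1 and Cfd fell as well, with 4 endothelial markers above 0 and 4 below. No marker of these lists was at 0 in all libraries, and their part in the members' levels was not tested.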

How the data were processed

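Bulk liver RNA was measured in 15 libraries, 5 per genotype. The authors deposited whole-number estimated counts for transcripts. The submitters' processing notes name Trimmomatic 0.39, kallisto 0.50.1, DESeq2 and mm10. Which transcript set was quantified is not stated in the material used. kallisto divides ambiguous reads between transcripts, which makes near-identical copies uncertain.

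Transcripts were matched to GENCODE M21 (GRCm38) by identifier, 114331 of 115911 (98.64%). The 1580 unmatched held 0.366% to 0.459% of a library's counts and were left out. Counts were summed per gene, with 35 gene identifiers merged into overlapping loci of the same symbol. Genes were filtered with filterByExpr (minimum count 10, total 15), which left 13916. All 15 libraries entered 1 fit in edgeR 4.0.16 (R 4.3.3) with TMM factors and the quasi-likelihood test, called at Benjamini-Hochberg adjusted p below 0.05. The SE is the log2 difference over the root of F. Log2 CPM used a prior count of 2. Levels per length divide each transcript's counts by its length and rescale the results to sum to 1000000 in each library. The fit was tested on simulated counts. Figures used Python 3.11.15 and matplotlib 3.10.9.

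Members and gene lists were chosen with earlier results of these data known. Named members were all that were called, the 2 with the lowest p per complex and comparison, the highest and lowest per length, and isoforms. From each other list at most 2 called genes with the lowest p per comparison were named; Surf1, Polrmt, the cell type markers and the regulators that were not called were added after their values were seen. Alternatives were DESeq2 1.42.0, limma-voom 3.58.1, RLE and upper-quartile factors, other count filters, 2-group fits, a replicate block, protein-coding transcripts, added pseudogene counts and left-out libraries; the length trend was added after seeing the data. No 2 libraries of a group agreed within sampling noise (lowest chi-square per degree of freedom 22.8). Values of 1 member are not reported here.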

Additional observations from a re-analysis of the deposited data

Results flagged for a closer look

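Dixon's ratio for groups of 5 was taken for the 19 members named by p and for the member medians by complex, 75 groups in all. In 4 of them 1 library lay far from the other 4, and chance alone flags about 1 group in 20. KO 4 was the high library in 3: Cox7a1 at 1.19 CPM beside 0.740 to 0.826, Cyc1 at 239 CPM beside 186 to 199, and Ndufv1 at 281 CPM beside 223 to 238. C247S_KI 5 was the low library for the median level of complex IV, at -0.51 beside -0.14 to -0.02 on the log2 scale.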

How the results depend on the processing

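In C247S_KI against WT and KO against WT, 0 members were called under every alternative run, with lowest adjusted p values of 0.187 to 0.747 and 0.0589 to 0.313. In KO against C247S_KI the count of 1 became 4 with DESeq2, 2 with protein-coding transcripts and 7 with the replicate block, and 0 to 3 when single libraries were left out. Settings other than a single left-out library gave 0 to 11 members at unadjusted p under 0.05 in C247S_KI against WT and 8 to 36 in KO against C247S_KI. Without single libraries the members above 0 in KO against WT numbered 25 to 66. With the length trend removed, chosen after seeing the data, the complex I median in KO against C247S_KI moved from 0.30 to 0.10. Without WT 1, C247S_KI 3 and C247S_KI 5, Sdhd in KO against WT turned to 0.057 and Uqcrc2 in C247S_KI against WT to 0.022; Sdhd also turned without WT 1 (0.062, range -0.178 to 0.062). The cause was not tested. Txnip in KO against C247S_KI was -1.13 to -0.77 without single libraries and lost its call without KO 4. Genes called in C247S_KI against WT, 12 in the main fit, were 65 with DESeq2, 20 without a count filter, and 6 in the 2-group fit and with the block. In KO against WT, 939 became 1505 with DESeq2 and 1542 without the 3 libraries. Single libraries moved these counts to 4 to 24, 521 to 928 and, in KO against C247S_KI from 1427, 784 to 2280. Deviations of same-numbered libraries correlated at -0.141 to 0.381, so the numbers were not taken to pair samples, and the block's extra calls were Ndufa2, Ndufa13, Ndufv1, Uqcrc1, Cyc1 and Atp5d. With a median SE of 0.15 over members, 5 libraries per group limit what differences of 0.2 to 0.3 can show.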
